A study of Mus musculus with 91 samples.

Results

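Myc, its dimerization partner Max, the Max-binding antagonists Mxd1, Mxd3, Mxd4, Mxi1 and Mnt, the Max-like protein Mlx, and the separate DNA-binding factor Myb were followed in mouse regulatory T cells (Tregs) after interleukin-2 (IL-2) signalling. These 9 genes were taken by their symbols from all 8 count tables of the study, which together hold 20378 genes, and all 9 were measured above the low-count filter in every table. Myc cannot bind DNA alone: it pairs with Max on E-box sites and raises transcription of genes for ribosome assembly, nucleotide synthesis and growth. The Mxd proteins (Mxd1, Mxd3, Mxd4 and Mxi1, which is also called Mxd2) and Mnt compete with Myc for Max, occupy the same sites and bring in Sin3 corepressors. Mlx pairs with Mxd1, Mxd4 and Mnt but not with Myc, and serves the glucose-sensing factors MondoA and ChREBP. Myb is no part of that network. It is a factor of blood progenitors that binds its own motif and is required for the effector form of Tregs. In T cells the IL-2 receptor signals through STAT5 and through kinase pathways that raise growth.

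The cells were Tregs sorted from the spleen of C57/BL6 mice that carry a red fluorescent protein with Foxp3, the defining Treg transcription factor. Mice received mouse IL-2 (mIL-2), a single protein that joins IL-2 to CD25, the alpha chain of its receptor (mIL-2/CD25, here FP), or PBS. Groups were 1.5 h and 16 h after injection (PBS, IL-2 and FP, 4 libraries each), 4 h (3 PBS, 4 IL-2, 3 FP), 72 h (3 PBS, 3 IL-2, 4 FP) and 168 h (3 PBS, 4 FP). Tregs given PBS or IL-2 in vitro for 1.5 h and mice given PBS or a high dose of IL-2 gave 3 libraries per group. In a restimulation experiment read 1.5 h after the last injection, 3 libraries followed PBS and then PBS, 3 followed PBS and then FP, and 4 followed FP and then FP. All samples carry 1 identical treatment text, which gives 20 µg of FP, 100 µL of PBS and 1.5 h, so the times were taken from the titles. The dose of IL-2, the size and time of the high dose and the interval between injections are not in the labels. So IL-2 and FP are set side by side at matched times and at doses that cannot be matched. The labels do not say that replicates are separate animals, and p-values then measure only the spread between these samples, which may be technical.

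Library totals lay between 12.2 M reads, the lowest of the 1.5 h table (highest 15.3 M), and 46.1 M, the highest of the restimulation table (lowest 29.0 M). The other tables had between 13.5 and 43.5 M reads in a library. The least read value here, Mxd3, rested on at least 28 reads in a library, and every other gene of the set on at least 179. Spread between replicates was widest in the high-dose table (40.7% biological variation) and at 4 h (38.4%), and narrowest in vitro (4.48%). The Treg-defining genes Foxp3, Il2ra, Ctla4, Ikzf2, Tnfrsf18, Cd4 and Cd3e were read in every table. The first library of PBS then FP stood apart from the other 2 of its group in Myc, Myb and Mxd4. Its Mxd4 level lay within the range of PBS then PBS, its Myb level just below that range and its Myc level just above it. In Max, Mxd3 and a sum of 15 cell cycle genes it lay outside that range, on the side of the FP groups. The restimulation tests of Myc, Myb, Mxd4 and Mxd3 are given with and without it. It was picked by its Myc, Myb and Mxd4 levels, so tests of these genes without it are no independent evidence. At 4 h, 2 libraries whose title and injected molecule contradict each other were left out of the groups. Their column headers name the agent of the title. In bulk RNA fewer cells of a type and less RNA per cell cannot be told apart.

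Promoter sequence was looked up because the set holds both a DNA-binding complex and the genes of its own members. RefSeq (GRCm38.p6) windows from 250 bases before to 50 bases after a start site were at hand for 8 of the 9 genes, the exception being Myc. The E-box CACGTG, the site that Myc-Max and Mxd-Max pairs bind, is its own reverse complement and lay in the windows of 4 of these 8 genes (10 windows in all), against 7.15% of the 32851 mouse promoters in the table. The 4 sites, each with up to 25 bases on either side, read as follows 5′ to 3′ on the gene's strand, with the E-box in capitals.
Max, chr12:76962221-76962276 (- strand): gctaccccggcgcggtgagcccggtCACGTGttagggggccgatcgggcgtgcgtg
Mnt, chr11:74830776-74830831 (+ strand): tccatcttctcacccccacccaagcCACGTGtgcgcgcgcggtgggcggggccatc
Mlx, chr11:101087225-101087280 (+ strand): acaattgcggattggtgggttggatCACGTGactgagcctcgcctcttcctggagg
Mxd4, chr5:34187899-34187954 (- strand): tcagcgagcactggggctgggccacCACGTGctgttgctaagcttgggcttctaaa
In Max the E-box began at position -3 from the start site, in Mlx at -40, in Mnt at -123 and in Mxd4 at -219.
The STAT5-type motif TTCNNNGAA, searched on both strands, was in 8.3% of all promoters and in none of the windows of these 8 genes. A short core of the E2F motif, GGCGGGA, was added with the sequences in view and was found on either strand in the windows of Mnt, Mxd3, Mxi1 and Myb, against 11.3% of all promoters. The sites of Mxd3, the gene with the largest change at 72 h, and Myb, the gene with the largest changes at 1.5 h and 4 h, are shown with that core in capitals, Myb with the whole 250 bases before its start.
Mxd3, chr13:55329837-55329893 (- strand): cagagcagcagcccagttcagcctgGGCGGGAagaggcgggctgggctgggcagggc
Myb, chr10:21160985-21161234 (- strand): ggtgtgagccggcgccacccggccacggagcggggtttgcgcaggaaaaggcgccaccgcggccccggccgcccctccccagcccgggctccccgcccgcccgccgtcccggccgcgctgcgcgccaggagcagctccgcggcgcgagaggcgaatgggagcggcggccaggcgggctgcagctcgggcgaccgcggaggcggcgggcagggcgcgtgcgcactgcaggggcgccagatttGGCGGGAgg
These matches describe the letters of the windows and were not tested for binding.

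In PBS-injected mice at 1.5 h the levels per length of merged exons, as CPM (read counts scaled to the same library size) per kb (mean ± SD, n = 4), ran from Myc at 49.7 ± 9.9 through Mxd4 at 30.8 ± 5.73, Max at 28.9 ± 1.71, Mxd1 at 18.7 ± 1.9, Mlx at 14.8 ± 2.88 and Mnt at 13.8 ± 0.8 to Myb at 4.39 ± 0.686, Mxi1 at 3.42 ± 0.497 and Mxd3 at 1.51 ± 0.505. Among neighbours in this order the library values overlapped for Mxd4 and Max, Mxd1 and Mlx, Mlx and Mnt, and Myb and Mxi1, and did not overlap for Myc and Mxd4, Max and Mxd1, Mnt and Myb, and Mxi1 and Mxd3. Mxd4 was thus the highest of the antagonists in these mice and Mxd3 the lowest. After 1.5 h of IL-2 the order changed. Myc reached 169 ± 36.5 CPM per kb, Myb with 35.4 ± 3.3 passed Mxd1, and Mxd4 at 12.8 ± 0.895 was below Mxd1 at 18.8 ± 3.22. Cells held in vitro with PBS had another profile, with Mxd1 at 34.9 ± 0.403, Mxi1 at 25.5 ± 0.598 and Myb at 15.2 ± 0.39 CPM per kb, although the tables were scaled separately and such levels were not tested across them.

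The number of the 9 genes that changed (edgeR quasi-likelihood test, adjusted p below 0.01 over all genes tested) was read beside the share of all genes that did. At 1.5 h IL-2 changed 6, with 14.2% of all genes called, and FP changed 5, with 6.67% called. At 4 h IL-2 changed 1 and FP 2, where 0.652% and 0.913% of genes were called. At 16 h FP changed 6, with 28.8% called, and IL-2 changed 0 with 0.35% called. At 72 h FP changed 5, with 30.4% called. IL-2 at 72 h changed 0 of the 9 (0% called). FP at 168 h changed 1, with 1.21% called. IL-2 in vitro changed 7, with 13.9% called. The high dose changed 0 (0% called), and in the restimulation table PBS then FP changed 0 (0.0111% called) and FP then FP changed 0 (0.629% called). For the counts of 0, the genes of the set at an unadjusted edgeR p under 0.05 and those called by DESeq2 numbered 2 and 0 for IL-2 at 16 h, 0 and 0 for IL-2 at 72 h, 2 and 1 for the high dose, 4 and 1 for PBS then FP, and 4 and 1 for FP then FP. Lack of overlap between groups has its own share of all genes. It was 25.6% with IL-2 and 18.7% with FP at 1.5 h, and 15.8% and 19.9% at 4 h. At 16 h it was 5.34% and 34.4%, and at 72 h 4.48% and 46.9%. It was 14.6% for FP at 168 h, 31.6% in vitro and 24.4% with the high dose. PBS then FP had 14.9% and FP then FP 17.4%. FP against IL-2 had 3.76% at 1.5 h, 48.1% at 16 h and 48.5% at 72 h.

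**Figure D1:**
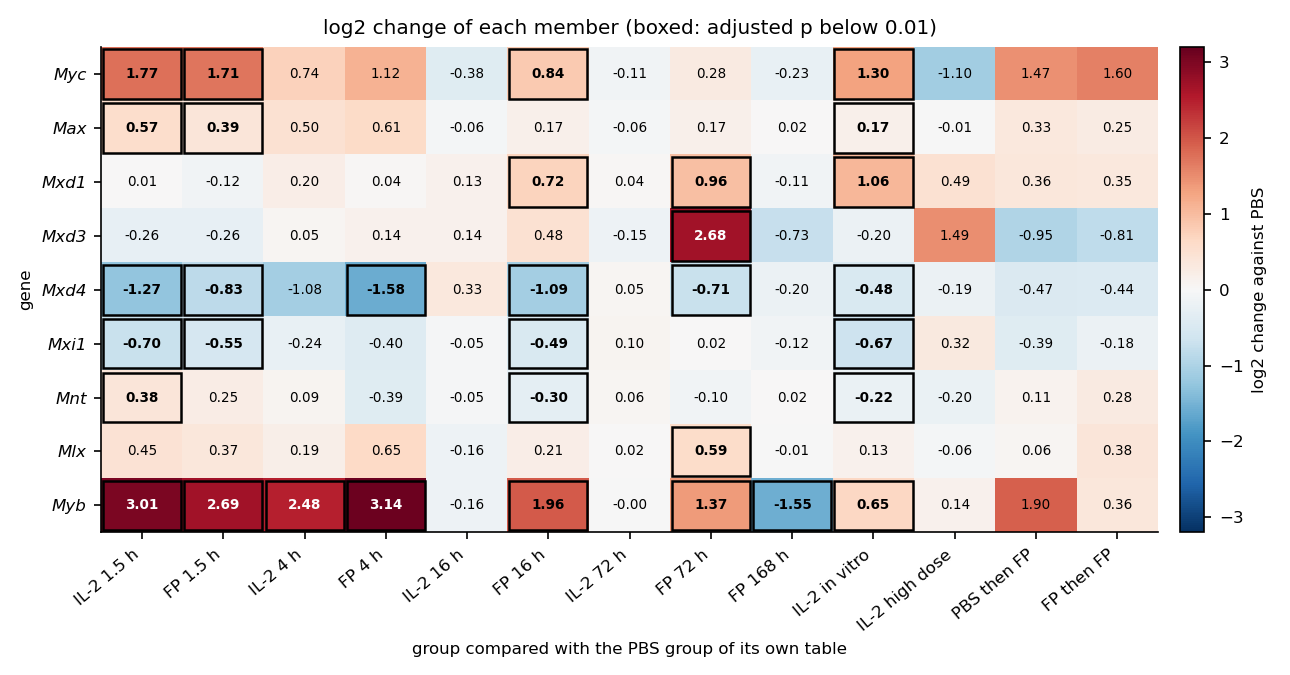
The log2 change of each of the 9 genes (rows) in each treated group against the PBS group of its own table (columns), coloured from lower (blue) to higher (red), with black boxes where the adjusted p was below 0.01. Myb and Mxd4 have boxes of opposite colour at 1.5 h, at 16 h after FP and at 72 h after FP, and the 16 h and 72 h IL-2 columns have none.

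Myc (ENSMUSG00000022346, chr15:61985391-61990374, GRCm38, + strand) rose early. At 1.5 h its CPM was 146, 113, 114 and 168 in the PBS libraries, 467, 589, 435 and 349.6 after IL-2 and 402, 536, 496 and 340.1 after FP. Every treated library was at least at 340.1 CPM, above the highest PBS library. The change was 3.4-fold for IL-2 (log2 change 1.77 ± 0.18 SE, adjusted p = 9.82e-06, n = 4 per group) and nearly as large for FP (log2 change 1.71 ± 0.18 SE, adjusted p = 2.72e-05). Between the agents the difference was -0.05 with a 95% interval -0.43 to 0.32, which did not pass the test and leaves room for a moderate difference either way.

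By 4 h the Myc CPM was 164, 117 and 96.9 for PBS, 306, 202, 189 and 145 for IL-2 and 282, 304 and 235 for FP. The FP libraries stayed above all PBS libraries, while the IL-2 libraries overlapped them. Neither change passed the test (log2 change 0.74 ± 0.27 SE, adjusted p = 0.223 for IL-2; 1.12 ± 0.29 SE, adjusted p = 0.0602 for FP). The FP change passed with DESeq2 (1.08, adjusted p = 0.00817). It also passed with edgeR when the 2 contradicting libraries were grouped by title (1.23, adjusted p = 0.00971), and the IL-2 change passed with neither. With the replicate number as a block the FP change passed (1.16, adjusted p = 0.00137) and the IL-2 change did not (0.76). The number is not the pairing that the column headers give for FP: a tag there puts FP library 2 with PBS library 1 and not with PBS library 2. With that tag as the block, an alternative chosen after seeing the data, both changes passed (1.01, adjusted p = 7.43e-05 for FP; 0.76, adjusted p = 0.00377 for IL-2).

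At 16 h both agents had parted. Myc was 119, 116, 139 and 76.8 CPM with PBS, 94.7, 86.7, 83.5 and 81.1 with IL-2 and 199, 194, 208 and 206 with FP. All FP libraries were above all others, and the narrow range of the IL-2 libraries lay inside the range of PBS. FP had raised Myc 1.79-fold (log2 change 0.84 ± 0.12 SE, adjusted p = 3.86e-05), and FP against IL-2 was 2.33-fold (log2 change 1.22 ± 0.12 SE, adjusted p = 7.73e-07). After IL-2 the value was -0.38 ± 0.12 SE, adjusted p = 0.228. It passed only without the lowest PBS library, the fourth (-0.53, adjusted p = 0.00356). The effect of IL-2 itself was smaller at 16 h than at 1.5 h by 2.14 on the log2 scale (2.83e-07 as adjusted p of that difference), where 12.8% of genes differed in this way. At 72 h the FP libraries (127, 137, 115 and 96.3 CPM) overlapped the PBS libraries (110.2, 103 and 80.1 CPM), and the change was 0.28 ± 0.15 SE, adjusted p = 0.148. At 168 h the ranges were 60.9 to 89.1 CPM with FP and 78.8 to 101 with PBS (log2 change -0.23 ± 0.14 SE, adjusted p = 0.482).

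IL-2 added in vitro raised Myc from 140.0, 147 and 139 to 358, 352 and 335 CPM, with groups far apart (log2 change 1.30 ± 0.04 SE, adjusted p = 6.58e-20). High-dose IL-2 went with low Myc: 51.8, 68.9 and 42.4 CPM against 118, 98.7 and 133 with PBS. Each high-dose library was below each PBS library, but the change did not pass the test (log2 change -1.10 ± 0.23 SE, adjusted p = 0.0751). These groups did not overlap for 24.4% of all genes, of which 0% were called. The summed level of 15 cell cycle genes was 629 to 1489 CPM in those libraries against 156 to 194 with PBS, and myeloid markers summed to 30.6 to 44.2 against 69.5 to 80.4, and their part in the result was not tested.

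**Figure D2:**
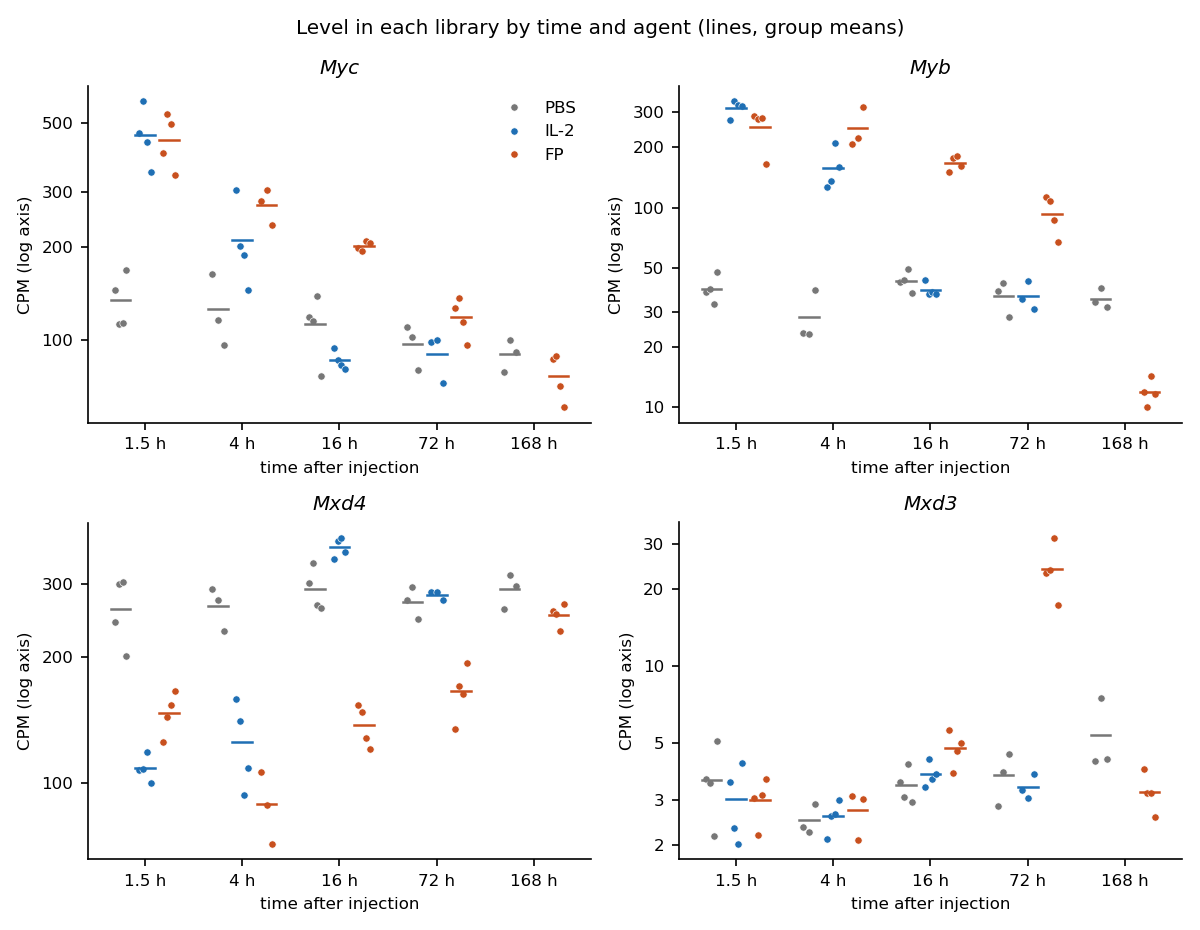
CPM of Myc, Myb, Mxd4 and Mxd3 in each library (points, log axis) against the time after injection of PBS, IL-2 or FP, with lines at the group means. At 1.5 h the IL-2 and FP libraries lie away from PBS for Myc, Myb and Mxd4. At 16 h the FP libraries lie above PBS for Myc and Myb and below it for Mxd4, the IL-2 libraries overlap PBS for Myc and Myb and lie above it for Mxd4, and Mxd3 is high in the FP libraries at 72 h.

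Max (ENSMUSG00000059436, chr12:76937269-76962201, - strand), the partner that both Myc and its antagonists need, moved far less than Myc. At 1.5 h it was 98.8, 104, 113 and 100.3 CPM with PBS, 159, 153, 159 and 146 with IL-2 and 138, 147, 147 and 114 with FP, without overlap with PBS. The rise was 1.48-fold for IL-2 (log2 change 0.57 ± 0.08 SE, adjusted p = 0.000221) and 1.31-fold for FP (log2 change 0.39 ± 0.08 SE, adjusted p = 0.00651). The call for FP was lost when any 1 of PBS libraries 1, 2 and 4 or FP libraries 1, 2 and 3 was left out (adjusted p 0.0145 to 0.0285), or only these groups were fitted (0.40, adjusted p = 0.018). In vitro a small rise from 87.4, 87.8 and 91.3 to 98.4, 103 and 97.6 CPM also passed (log2 change 0.17 ± 0.04 SE, adjusted p = 0.00353), and was lost without PBS library 1 or 2 or IL-2 library 1 or 2 (adjusted p 0.0131 to 0.0366) or with the first sequencing run alone (0.16, adjusted p = 0.0126). At 16 h the FP libraries (116, 115, 116 and 114 CPM) lay above all PBS libraries (91.4 to 110.2 CPM), at 0.17 ± 0.06 SE, adjusted p = 0.0433, which did not pass. It passed with DESeq2 on all libraries (0.21, adjusted p = 0.00843), and with edgeR without the third PBS library (0.26, adjusted p = 0.00189). In the other comparisons with PBS the log2 change of Max was between -0.06 and 0.61, and none of them passed.

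Mxd4 (ENSMUSG00000037235, chr5:34173883-34187720, - strand), the most abundant antagonist in PBS-injected mice, fell at 1.5 h with both agents and at 16 h with FP, where Myc rose. Its CPM at 1.5 h was 243, 299, 302 and 201 with PBS, 107, 108, 118 and 99.9 with IL-2 and 125, 144, 153 and 166 with FP. Both treated groups lay wholly below PBS, and the IL-2 libraries lay below the FP libraries. Expression fell to 0.415 of PBS with IL-2 (log2 change -1.27 ± 0.13 SE, adjusted p = 7.11e-06) and to 0.563 with FP (log2 change -0.83 ± 0.12 SE, adjusted p = 0.000502). The difference between FP and IL-2 was 0.44 ± 0.12 SE, adjusted p = 0.641, with a 95% interval 0.17 to 0.71. Of the 9 genes 0 differed between both agents at 1.5 h (edgeR, 0% of all genes called; 1 gene, Mxd4, at an unadjusted p under 0.05 and 0 with DESeq2).

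At 4 h Mxd4 was 291, 274 and 231 CPM with PBS, 159, 140.3, 93.3 and 109 with IL-2 and 106, 88.4 and 71.3 with FP, with no PBS library as low as any treated one. FP lowered it to 0.334 of PBS (log2 change -1.58 ± 0.23 SE, adjusted p = 0.007). That call was lost when any 1 of the 6 libraries was left out (log2 change -1.73 to -1.48, adjusted p 0.0142 to 0.0474). It was also lost with the sequencing lane in the fit (-1.32, adjusted p = 0.276): all PBS and IL-2 libraries were in lane 2 and FP libraries 2 and 4 in lane 1. It was lost as well when only both groups were fitted (-1.59, adjusted p = 0.0194) and, with a smaller change, when the 2 contradicting libraries were grouped by injected molecule (-0.73, adjusted p = 0.767). The column headers of these 2 libraries name the agent of the title and so contradict that last grouping. For IL-2 the change was -1.08 ± 0.21 SE, adjusted p = 0.0273, which passed with the replicate block (-0.98, adjusted p = 0.00154) and with the header tag as block (-1.05, adjusted p = 1.94e-05). It also passed with DESeq2 (-1.11, adjusted p = 0.000103), and with edgeR when the contradicting libraries were grouped by title (-1.07, adjusted p = 0.00482).

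The lowering by FP was still there at 16 h, when Mxd4 was 154, 147, 128 and 120.2 CPM against 300.3, 337, 266 and 262 with PBS. IL-2 libraries were at 343, 379, 386 and 358 CPM, every one above every PBS library. FP had lowered Mxd4 (log2 change -1.09 ± 0.09 SE, adjusted p = 1.24e-07), IL-2 differed from PBS by 0.33 ± 0.09 SE, adjusted p = 0.143, and FP against IL-2 was 0.375-fold (log2 change -1.42 ± 0.09 SE, adjusted p = 6.95e-09). The IL-2 effect at 16 h was higher than that at 1.5 h by 1.60 ± 0.16 SE, adjusted p = 9.99e-08. At 72 h FP libraries were at 135, 171, 163 and 193 CPM and PBS libraries at 274, 294 and 247, still apart (log2 change -0.71 ± 0.11 SE, adjusted p = 0.000284). At 168 h the ranges overlapped, with 231 to 268 CPM after FP and 261 to 314 after PBS (log2 change -0.20 ± 0.10 SE, adjusted p = 0.367). In vitro IL-2 lowered Mxd4 from 259, 257 and 264 to 185, 189 and 187 CPM (log2 change -0.48 ± 0.03 SE, adjusted p = 1.25e-11). This was a smaller fall than in the animal, by 0.79 ± 0.16 SE, adjusted p = 0.00347, a difference that was lost when any 1 of PBS in vitro libraries 1, 2 and 3 or IL-2 in vitro libraries 2 and 3 was left out (adjusted p 0.0102 to 0.0123). An antisense gene, Gm42846, shares 6.06% of the exon length of Mxd4, and whether counting used strand is not given, so its reads cannot be told apart from those of Mxd4.

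Mxi1 (ENSMUSG00000025025, chr19:53310518-53375810, + strand), another Max-binding antagonist, fell with Mxd4 at 1.5 h, at a lower level. It was 20.6, 22.8, 21.7 and 28.2 CPM with PBS, 15.6, 13.4, 14.7 and 13.8 with IL-2 (log2 change -0.70 ± 0.12 SE, adjusted p = 0.000836) and 13.9, 18.2, 16.8 and 15 with FP (log2 change -0.55 ± 0.12 SE, adjusted p = 0.00866). No treated library reached the lowest PBS library. The FP call was lost when any 1 of the 4 PBS libraries or of FP libraries 1, 3 and 4 was left out (adjusted p 0.0108 to 0.0334), or only these groups were fitted (-0.54, adjusted p = 0.0212). FP lowered it at 16 h too, when it was 15.4 to 17.7 CPM with FP and 22 to 25.5 with PBS (log2 change -0.49 ± 0.09 SE, adjusted p = 0.000226). At 72 h the value was 0.02 ± 0.11 SE, adjusted p = 0.908. These 2 FP effects differed by 0.50 ± 0.13 SE, adjusted p = 0.00595, where 15.6% of genes differed, and the call was lost without PBS library 1 or 3 or FP library 2, 3 or 4 of 16 h, or PBS or FP library 2 or 3 of 72 h (adjusted p 0.0102 to 0.0286). In vitro Mxi1 was 172, 171 and 178 CPM with PBS and 108, 109 and 109.9 with IL-2, again a fall (log2 change -0.67 ± 0.04 SE, adjusted p = 2.53e-14). High-dose IL-2 went the other way, at 26.1 to 28.1 CPM against 20.9 to 22.8 with PBS, a change that did not pass. Gm10197, on the opposite strand, shares 2.84% of the exon length of Mxi1.

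Mxd1 (ENSMUSG00000001156, chr6:86647042-86669161, - strand), an antagonist known from differentiating cells, moved upward and later. At 1.5 h it was 128, 140.4, 115 and 145 CPM with PBS, 138, 163, 117 and 113 with IL-2 and 129, 140.3, 112 and 103 with FP, with overlapping ranges (log2 change 0.01 ± 0.13 SE, adjusted p = 0.968 for IL-2, 95% interval -0.26 to 0.28). At 16 h it was 91.1, 88.5, 100.3 and 90.9 CPM with PBS and 147, 144, 165 and 155 with FP, groups that were fully apart (log2 change 0.72 ± 0.07 SE, adjusted p = 3.32e-07). IL-2 at that time gave 105, 99.2, 107 and 95.3 CPM (log2 change 0.13 ± 0.07 SE, adjusted p = 0.476), and FP exceeded IL-2 (log2 change 0.59 ± 0.07 SE, adjusted p = 2.78e-06). The FP effect was larger at 16 h than at 1.5 h by 0.87 ± 0.15 SE, adjusted p = 0.000182, where 4.98% of genes differed. By 72 h FP libraries were at 169, 173, 198 and 137 CPM and PBS libraries at 100.0, 88.3 and 73.3 (log2 change 0.96 ± 0.15 SE, adjusted p = 0.000246). By 168 h the FP libraries were back in the PBS range, at 69.8 to 88.9 against 66.4 to 97.8 CPM (log2 change -0.11 ± 0.14 SE, adjusted p = 0.75).

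In vitro, in contrast to the animal, IL-2 raised Mxd1 within 1.5 h. It went from 244, 249.8 and 247 to 513, 521 and 509 CPM, with every IL-2 library above every PBS library (log2 change 1.06 ± 0.03 SE, adjusted p = 5.96e-19). The effect in vitro exceeded that in the animal by 1.04 ± 0.16 SE, adjusted p = 0.00035, where 4.96% of all genes differed between both settings. High-dose IL-2 gave 152, 223 and 143 CPM against 108, 130.4 and 129 with PBS, all higher, which did not pass (log2 change 0.49 ± 0.22 SE, adjusted p = 0.332).

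Mxd3 (ENSMUSG00000021485, chr13:55325168-55329823, - strand), the Mxd protein known from cells in S phase, had the largest single change of the set at 72 h. It was 2.83, 3.85 and 4.53 CPM with PBS, 3.05 to 3.77 with IL-2 (3 libraries) and 23.1, 23.8, 31.6 and 17.3 with FP. The lowest FP library was several times above the highest of the others. FP raised it 6.39-fold (log2 change 2.68 ± 0.22 SE, adjusted p = 2.39e-06), and FP against IL-2 gave log2 change 2.83 ± 0.22 SE, adjusted p = 1.63e-06. At 16 h it was 5.6, 3.81, 4.65 and 4.99 CPM with FP against 3.52, 3.06, 4.14 and 2.92 with PBS (log2 change 0.48 ± 0.16 SE, adjusted p = 0.0283), with overlap, and passed only without the third PBS library (0.64, adjusted p = 0.00496). The FP effect at 72 h exceeded that at 16 h by 2.19 ± 0.27 SE, adjusted p = 6.01e-06. At 168 h the FP libraries were at 3.94, 3.17, 3.19 and 2.56 CPM and those of PBS at 4.26, 7.51 and 4.34 (log2 change -0.73 ± 0.27 SE, adjusted p = 0.235). The difference of the effects at 168 h and 72 h was -3.39 ± 0.34 SE, adjusted p = 1.95e-06, where 8.6% of genes differed.

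The other group with high Mxd3 values was the high dose of IL-2, at 10.6, 10.5 and 9.69 CPM against 4.36, 2.93 and 3.63 with PBS. These groups did not overlap, and the change was 1.49 ± 0.24 SE, adjusted p = 0.0356, short of the threshold with edgeR, while DESeq2 gave 1.57 with an adjusted p of 2.51e-05. Beside these values stand those of 15 cell cycle genes, whose summed level was 2086 to 3733 CPM in FP libraries at 72 h against 181 to 241 with PBS, 1092 to 1150 against 176 to 234 at 16 h, and 202 to 318 against 182 to 204 at 168 h. With FP at 16 h that sum stood beside Mxd3 levels of 3.81 to 5.6 CPM. With the high dose a sum of 629 to 1489 CPM, against 156 to 194 with PBS, stood beside Mxd3 levels of 9.69 to 10.6 CPM. Myeloid markers at 72 h summed to 17.4 to 65.3 CPM with FP and 238 to 587 with PBS. The part of either list in the Mxd3 result was not tested. Prelid1, on the opposite strand, shares 4.43% of the exon length of Mxd3.

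**Figure D3:**
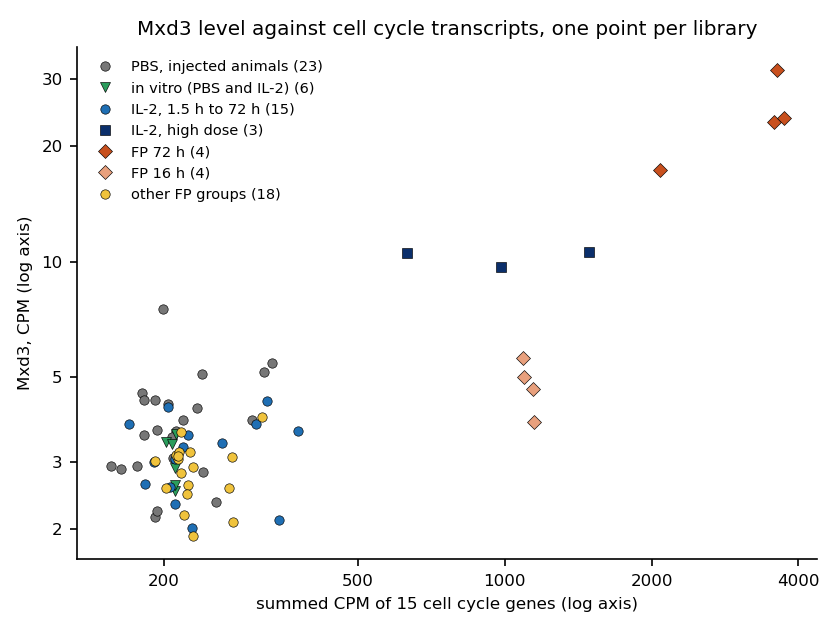
Mxd3 CPM against the summed CPM of 15 cell cycle genes, both on log axes, 1 point per library, coloured by group. The 4 FP libraries at 72 h are high on both axes. The 3 high-dose libraries have cell cycle sums of 629 to 1489 CPM with about 10 CPM of Mxd3. The 4 FP libraries at 16 h have cell cycle sums of 1092 to 1150 CPM with Mxd3 between 3.81 and 5.6.

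Mnt (ENSMUSG00000000282, chr11:74830920-74845725, + strand), the antagonist that is present in most cells whether dividing or not, changed by small amounts and in both directions. It was 62.3, 59.4, 67.5 and 66.1 CPM with PBS and 89.5, 82, 79.9 and 80.2 with IL-2 at 1.5 h, without overlap. The rise passed (log2 change 0.38 ± 0.08 SE, adjusted p = 0.00329) and was lost without PBS library 1 or 2 or IL-2 library 1 (adjusted p 0.0126 to 0.015). With FP it was 73.5, 78.2, 83.9 and 67 CPM (log2 change 0.25 ± 0.08 SE, adjusted p = 0.0576). At 4 h every FP library lay below every PBS library, at 34.2 to 56.2 against 56.8 to 65.4 CPM, a change that did not pass. At 16 h FP had lowered Mnt, from 59.9, 67.6, 62.2 and 53.9 to 53.5, 47.7, 49.1 and 47 CPM (log2 change -0.30 ± 0.08 SE, adjusted p = 0.00509). This call was lost without PBS library 2 or 3 or FP library 2, 3 or 4 (adjusted p 0.0193 to 0.0232), and with median-of-ratios scaling (-0.27, adjusted p = 0.0119), with no low-count filter (-0.25, adjusted p = 0.0148) or with only these groups fitted (-0.29, adjusted p = 0.0228). In vitro IL-2 lowered Mnt within 1.5 h, from 118, 120.0 and 113 to 100.4, 102 and 99.5 CPM (log2 change -0.22 ± 0.04 SE, adjusted p = 7.84e-05). With the first sequencing run alone that call was lost (-0.15, adjusted p = 0.0132). The IL-2 effects in vitro and in the animal differed by -0.60 ± 0.10 SE, adjusted p = 0.000613, with opposite signs.

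Mlx (ENSMUSG00000017801, chr11:101087277-101092207, + strand), the partner of MondoA, passed the test only for FP at 72 h among the comparisons with PBS. It was 34.9, 31.6 and 29.4 CPM with PBS and 51.3, 57.6, 44.6 and 39.4 with FP, without overlap (log2 change 0.59 ± 0.13 SE, adjusted p = 0.00259). The call was lost without PBS library 2 or 3 (adjusted p 0.0185 and 0.0236) or with only these groups fitted (0.58, adjusted p = 0.0117). At 1.5 h all IL-2 libraries (38.8, 37.3, 45.2 and 40.3 CPM) exceeded all PBS libraries (27.4, 36.6, 31.2 and 23 CPM), at 0.45 ± 0.12 SE, adjusted p = 0.0129. This passed with DESeq2 on all libraries (0.46, adjusted p = 0.00398), and with edgeR without the second PBS library (0.57, adjusted p = 0.00289). At 16 h with FP the change was 0.21 ± 0.12 SE, adjusted p = 0.152, and it passed without the third PBS library (0.40, adjusted p = 0.00363). The gene Psmc3ip on the opposite strand shares 19.3% of the exon length of Mlx, so its values are uncertain.

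Myb (ENSMUSG00000019982, chr10:21124935-21160984, - strand) had the largest early rise of the 9 genes. At 1.5 h it was 37.7, 38.8, 32.8 and 47.5 CPM with PBS, 274, 341, 327 and 324 with IL-2 and 288, 278, 279.8 and 165 with FP. The lowest treated library, FP library 4, was still far above the highest PBS library. IL-2 raised Myb 8.06-fold (log2 change 3.01 ± 0.17 SE, adjusted p = 8.23e-08) and FP 6.45-fold (log2 change 2.69 ± 0.17 SE, adjusted p = 3.54e-07). The difference of FP from IL-2 was -0.32, with a 95% interval -0.66 to 0.01. At 4 h it was 23.5, 23.2 and 38.5 CPM with PBS, 126, 136, 211 and 160.2 with IL-2 and 208, 223 and 318 with FP. Both rises passed (log2 change 2.48 ± 0.28 SE, adjusted p = 0.00274 for IL-2; 3.14 ± 0.29 SE, adjusted p = 0.00109 for FP). The call for IL-2 was lost without PBS library 1 or 2 (adjusted p 0.017 and 0.0301), and that for FP without PBS library 2 (3.01, adjusted p = 0.0118) or with the lane in the fit (2.87, adjusted p = 0.026). Both were lost when only the groups compared were fitted (adjusted p 0.0101 and 0.0146), and when the 2 contradicting libraries were grouped by injected molecule (0.76 for IL-2 and 1.07 for FP). That grouping by molecule is contradicted by the column headers of these 2 libraries, which name the agent of the title. Between both agents at 4 h 0 of the 9 genes differed (edgeR, 0% of all genes called; 3 at an unadjusted p under 0.05 and 0 with DESeq2). The effects at 4 h and at 1.5 h differed for 0 of the 9 genes with either agent (edgeR; 2 for FP and 1 for IL-2 at an unadjusted p under 0.05, 0 with DESeq2), where 0.00574% of genes differed for FP and 0% for IL-2.

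By 16 h Myb was near the PBS level after IL-2 and well above it after FP. The PBS libraries were at 42.3, 43.3, 49.2 and 37.1 CPM, those of IL-2 at 43.2, 36.6, 37.8 and 36.7 and those of FP at 151, 176, 180.3 and 161. Every FP library was far above every other library. FP raised Myb 3.89-fold (log2 change 1.96 ± 0.09 SE, adjusted p = 7.31e-11), IL-2 left it at -0.16 ± 0.09 SE, adjusted p = 0.536 with a 95% interval -0.35 to 0.04, and FP against IL-2 was 4.33-fold (log2 change 2.11 ± 0.09 SE, adjusted p = 7.26e-11). Of the 9 genes 6 differed between both agents at 16 h, where 31.8% of all genes were called. The IL-2 effect at 16 h was below that at 1.5 h by 3.16 on the log2 scale (adjusted p = 5.47e-11 for the difference).

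Plasma cell markers moved with the Myc and Myb rises. Of the 4 genes of that list Jchain, Xbp1 and Irf4 were read in every table and Sdc1 only in vitro. Their sum at 1.5 h was 126 to 142 CPM with PBS, 337 to 448 with IL-2 and 248 to 346 with FP. At 4 h it was 112 to 160.5 with PBS, 168 to 387 with IL-2 and 262 to 441 with FP. At 16 h it was 108 to 154 with PBS, 124 to 126 with IL-2 and 214 to 262 with FP, and at 72 h 117 to 145, 118 to 130.1 and 187 to 288. Nearly all of it came from Xbp1, a factor of the unfolded protein response, and Irf4, a factor that activated T cells use too. Xbp1 rose with IL-2 at 1.5 h (2.03 ± 0.14 SE, adjusted p = 2.5e-07). With FP it rose at 1.5 h (1.61 ± 0.13 SE, adjusted p = 3.61e-06) and by 2.01 at 4 h, 1.31 at 16 h and 1.16 at 72 h. Jchain, the antibody joining chain of plasma cells, had group means of 0.404 to 2.59 CPM from 1.5 h to 72 h and passed in none of the comparisons with PBS at these times (edgeR; 2 at an unadjusted p under 0.05, FP at 1.5 h and at 4 h; DESeq2 was not tabulated for this list). The part of this list in the Myc and Myb results was not tested.

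At 72 h Myb was 38, 42 and 28.3 CPM with PBS, 34.6, 42.7 and 30.9 with IL-2 and 113, 107, 86.1 and 66.8 with FP. FP libraries still stood above all others (log2 change 1.37 ± 0.19 SE, adjusted p = 0.00014), and the IL-2 difference was near 0 with a 95% interval -0.44 to 0.43. At 72 h 5 of the 9 genes differed between FP and IL-2, where 30.8% of genes were called. At 168 h the direction was opposite: FP libraries were at 11.8, 9.95, 14.2 and 11.6 CPM and PBS libraries at 33.5, 39.3 and 31.6. Every FP library lay below every PBS library, and Myb was at 0.341 of PBS (log2 change -1.55 ± 0.14 SE, adjusted p = 0.000143), the only gene of the 9 to pass at that time. The effects at 168 h and 72 h differed by -2.92 ± 0.25 SE, adjusted p = 4.78e-07. At 168 h the myeloid markers summed to 24.5 to 31.3 CPM with FP and 161 to 234 with PBS, with 6 of 7 called lower. Their part in the Myb result was not tested. Markers of thymocytes and progenitors, in which Myb is known to be high, summed to 0.789 to 4.94 CPM over all libraries, with 1 or 2 of the 6 genes present in a table.

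In the separately scaled in vitro table Myb was at 137, 132 and 139 CPM with PBS and rose to 209, 216 and 215 with IL-2 (log2 change 0.65 ± 0.04 SE, adjusted p = 4.13e-14). This rise was smaller than in the animal by 2.36 on the log2 scale (adjusted p = 9.11e-07). The high dose gave 41.1, 35.3 and 32.3 CPM against 32.8, 35.6 and 30.0 with PBS (log2 change 0.14 ± 0.16 SE, adjusted p = 0.78). The antisense gene Gm26577 shares 6.26% of the exon length of Myb, and its reads cannot be told apart from those of Myb.

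The restimulation table asks whether a second FP injection gives what the first does. After PBS then PBS, Myc was 116, 81 and 113 CPM. It was 127, 377 and 356 after PBS then FP and 285, 379, 288 and 301 after FP then FP. The first library of PBS then FP lay near the PBS libraries but above their highest, and the other 2 with the FP then FP libraries, which all lay above PBS. In Max all 3 PBS then FP libraries, at 120 to 132 CPM, lay above PBS then PBS at 95.1 to 105 CPM. With all libraries the single injection gave log2 change 1.47 ± 0.35 SE, adjusted p = 0.135 with edgeR, and it passed with DESeq2 (1.47, adjusted p = 0.00411). Without its first library, picked after seeing its level, edgeR gave 1.83 ± 0.19 SE, adjusted p = 0.00485 (0.173% of genes called). The repeated injection gave log2 change 1.60 ± 0.33 SE, adjusted p = 0.0269, and 1.60 ± 0.17 SE, adjusted p = 0.00237 when that library was left out of the shared estimate of spread (0.941% called), an alternative chosen after seeing the data. The repeated injection also passed with DESeq2 on all libraries (1.61, adjusted p = 6.28e-05) and with edgeR on only the groups compared (1.59, adjusted p = 0.00793).

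Myb had another pattern in the same libraries. It was 39.3, 30.4 and 31.7 CPM after PBS then PBS, 28.4, 188 and 162 after PBS then FP and 39.1, 35.8, 60.6 and 38 after FP then FP. Apart from its first library, PBS then FP stood several times above both other groups, and FP then FP overlapped PBS then PBS. The single injection gave log2 change 1.90 ± 0.54 SE, adjusted p = 0.213 with all libraries and 2.37 ± 0.23 SE, adjusted p = 0.00396 without the first. The repeated injection gave log2 change 0.36 ± 0.49 SE, adjusted p = 0.677, with a 95% interval -0.73 to 1.45, and 0.36 ± 0.20 SE, adjusted p = 0.32 without that library in the fit. Repeated against single FP, Myb was -1.54 ± 0.48 SE, adjusted p = 0.129 with all libraries (0 of the 9 genes called, 1 at an unadjusted p under 0.05 and 0 with DESeq2; 0.585% of genes called). Without that library it was lower after the repeated injection by 2.02 on the log2 scale (95% interval -2.50 to -1.53, adjusted p = 0.00606), the 1 gene of the 9 called, with 0.106% of genes called. That library was picked after seeing its low Myb level. So the Myb tests without it, for the single injection too, describe the other libraries and are no independent evidence. Myc in that comparison was 0.13 ± 0.32 SE, adjusted p = 0.843 with all libraries and -0.23 ± 0.18 SE, adjusted p = 0.468 without that one, with a 95% interval -0.63 to 0.18.

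Mxd4 was 261, 319 and 385 CPM after PBS then PBS, 355, 162 and 179.8 after PBS then FP and 232, 273, 188 and 257 after FP then FP. Here the first library of PBS then FP lay among the PBS libraries. With all libraries the single injection gave -0.47 ± 0.29 SE, adjusted p = 0.789, and without that library -0.91 ± 0.21 SE, adjusted p = 0.0879. The repeated injection gave -0.44 ± 0.27 SE, adjusted p = 0.359 and -0.44 ± 0.17 SE, adjusted p = 0.178, and none of these passed. Mxd3 was 5.42, 3.85 and 5.15 CPM after PBS then PBS, 2.9, 2.61 and 1.92 after PBS then FP and 2.56, 3.1, 2.47 and 2.8 after FP then FP, so both FP groups lay below the PBS group. The single injection gave -0.95 ± 0.21 SE, adjusted p = 0.119 with all libraries and -1.08 ± 0.24 SE, adjusted p = 0.082 without the first. The repeated one gave -0.81 ± 0.20 SE, adjusted p = 0.0477, and -0.81 ± 0.19 SE, adjusted p = 0.0473 without that library, and none of these passed. Myeloid markers summed to 26.2 to 60.6 CPM after FP then FP, 112 to 119 after PBS then FP and 63.8 to 127 after PBS then PBS, and the cell cycle sum was 303 to 334 CPM in PBS then PBS against 214 to 272 in the FP groups. Their part in these results was not tested. The effects of a single FP injection here and in the 1.5 h table differed for 0 of the 9 genes (edgeR, with or without the first library; 0 at an unadjusted p under 0.05 in both, 0 with DESeq2 with it). Of all genes 0% were called in either fit, so the count of 0 called says nothing particular about these 9 genes.

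**Figure D4:**
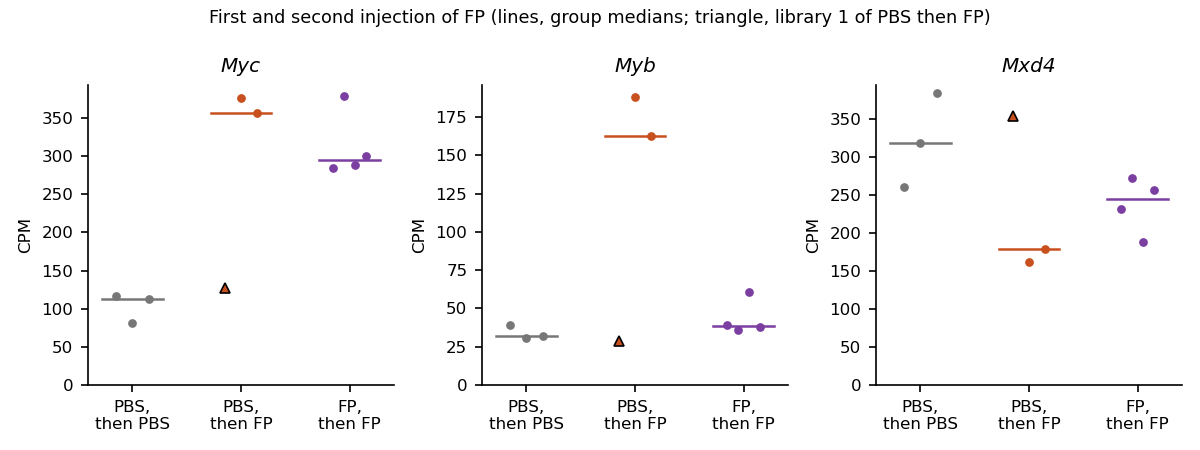
CPM of Myc, Myb and Mxd4 in each library of the restimulation table, on linear axes from 0, with lines at the group medians and a triangle for the first library of PBS then FP. The 4 FP then FP libraries lie above PBS then PBS for Myc, at 285 to 379 CPM, and beside it for Myb, at 35.8 to 60.6 CPM.

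The balance of Myc and the antagonist that led in PBS-injected mice was expressed as the ratio of Myc to Mxd4 per exon length in each library, a description with no test of its own. The median ratio at 1.5 h was 1.53 with PBS (range 1.17 to 2.62), 12.5 with IL-2 (10.9 to 17.05) and 10.1 with FP (6.39 to 11.6). At 4 h it was 1.33 with PBS, 5.25 with IL-2 and 10.3 with FP. At 16 h FP libraries stood at 4.60 (4.04 to 5.36), while IL-2 libraries at 0.711 (0.675 to 0.862) lay below the PBS libraries at 1.15 (0.915 to 1.64). At 72 h the ratio with FP was 2.35 (1.56 to 2.95) against 1.09 with PBS, and at 168 h 1.01 against 0.967. High-dose IL-2 went with 0.715 against 1.24 for its PBS group. After FP then FP it was 4.09 (3.65 to 4.77), against 0.914 after PBS then PBS. Myc was also set against the sum of Mxd1, Mxd3, Mxd4, Mxi1 and Mnt. That ratio had a median of 0.711 with PBS (0.572 to 0.958), 3.13 with IL-2 (2.63 to 3.84) and 3.05 with FP (2.39 to 3.44) at 1.5 h. At 16 h FP libraries were at 1.40 (1.32 to 1.50), above PBS at 0.63 (0.471 to 0.795), and IL-2 libraries at 0.414 (0.393 to 0.474) overlapped PBS. At 72 h FP at 0.645 (0.556 to 0.743) overlapped PBS at 0.591 (0.531 to 0.641), so a separation there was seen for Mxd4 and not for the sum.

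**Figure D5:**
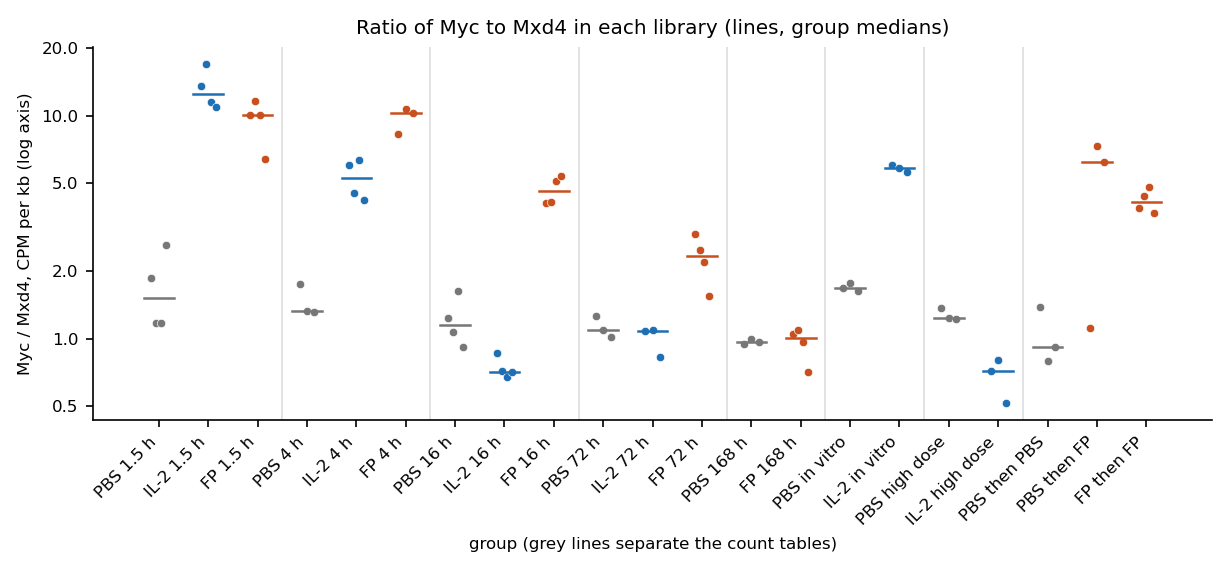
The ratio of Myc to Mxd4, each as CPM per kb of exon, in every library (points, log axis) by group, with lines at the group medians and grey lines between tables. The medians are 12.5 and 10.1 at 1.5 h with IL-2 and FP, 0.711 and 4.60 at 16 h, and between 0.914 and 1.69 in the PBS groups.

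Among genes that Myc is known to activate, a list of 30 for ribosome assembly, nucleotide and polyamine synthesis and the cell cycle, 23 of 29 tested rose with IL-2 at 1.5 h and 19 with FP, where 8.39% and 4.39% of all genes rose. The list's median log2 change was 0.87 and 0.68, beside -0.008 over all genes for both agents. Srm, which makes spermidine, led with 2.05 ± 0.14 SE, adjusted p = 2.64e-07 for IL-2, before the nucleolar genes Nop16 at 1.48 and Rrs1 at 1.46. At 4 h 5 of 29 rose with IL-2 and 4 with FP, with list medians of 1.30 and 1.31, where 0.567% and 0.72% of all genes rose and their medians were 0.059 and 0.046. Shmt2, a mitochondrial one-carbon enzyme, rose by 2.02 with IL-2. At 16 h all 29 tested rose with FP, with a median of 1.00 beside -0.051 over all genes, of which 14.4% rose. Dnph1, a nucleotide hydrolase, led with 2.50 ± 0.25 SE, adjusted p = 6.91e-07, then Shmt2 at 1.50 and Cad, which starts pyrimidine synthesis, at 1.49. With IL-2 at 16 h 0 of 29 passed with edgeR, 16 were lower at an unadjusted p under 0.05, and the median was -0.27. Over all genes it was -0.006, and 0.35% were called. At 72 h with FP, when Myc itself did not pass, 18 of 29 rose, with a median of 0.59 beside -0.050 over all genes, of which 17.3% rose.

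In vitro, where Myc rose by 1.30, the same list moved little: 8 of 28 rose and 1 fell, with a median of 0.13 beside -0.002 over all genes, of which 7.4% rose and 6.54% fell, and Srm rose by 0.80. After FP then FP, where Myc was at 285 to 379 CPM and did not itself pass with edgeR, 0 of 30 passed (edgeR; 10 at an unadjusted p under 0.05). The list's median was 0.31, beside -0.020 over all genes, of which 0.629% were called and 0.373% rose. With the high dose 0 of 30 passed (edgeR; 15 at an unadjusted p under 0.05, of which 13 were lower), with a median of -0.41 beside -0.035 over all genes, of which 0% were called.

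Of 7 genes that Myc is known to repress, mostly cell cycle brakes, 3 of 6 tested fell with IL-2 at 1.5 h: Ndrg2 by 1.12, Gadd45a by 0.98 and the inhibitor Cdkn1b by 0.85 on the log2 scale, where 5.79% of all genes fell. FP at 16 h gave a divided picture, with Ndrg1 (1.51), Cdkn1a (1.37) and Cdkn2c (0.63) higher and Gadd45a (-1.15) and Cdkn1b (-1.09) lower, where 14.4% of all genes rose and 14.3% fell. At 72 h 4 of 7 rose with FP and none fell, led by Cdkn2b at 4.76 ± 0.35 SE, adjusted p = 9.07e-07, Cdkn1a at 4.48 and Cdkn2c at 3.66, and the median was 2.48, where 17.3% of all genes rose and 13.1% fell. The Cdkn genes encode inhibitors of cyclin-dependent kinases.

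Cofactors of the network moved in part. Over all genes 8.39% rose and 5.79% fell with IL-2 at 1.5 h, 4.39% and 2.28% with FP at 1.5 h, 14.4% and 14.3% with FP at 16 h, and 17.3% and 13.1% with FP at 72 h, and the counts that follow stand beside these shares. Of 13 Myc cofactors 4 rose with IL-2 at 1.5 h, the helicases Ruvbl1 (0.77) and Ruvbl2 (0.59), the chromatin adaptor Wdr5 (0.67) and the acetyltransferase Kat2a (0.61), and 4 rose with FP at 16 h, Ruvbl2 (0.79), Ruvbl1 (0.74), Kat2a (0.71) and Wdr5 (0.44). The list's median was 0.006 and 0.085 in these comparisons. Among 8 Sin3 corepressor genes 3 rose with FP at 16 h, with Rbbp7 at 0.90, and 4 at 72 h (list medians 0.13 and 0.44), with Sap30 at 1.51. Of 9 genes tested that control Myc protein turnover, the deubiquitinase gene Usp36 rose (1.52 with IL-2 and 1.17 with FP) and the deubiquitinase gene Usp28 fell (-0.81 and -0.66) at 1.5 h. On the Mlx side, Mlxip, which encodes MondoA, fell at 1.5 h (-0.60 with IL-2 and -0.64 with FP). Its target Arrdc4, an arrestin that limits glucose uptake, fell as well (-1.06 and -1.19), and Arrdc4 and Txnip both fell with FP at 16 h (-0.84 and -0.83). Within 7 genes of the Myb family and its MuvB partners, 4 rose and 1 fell with FP at 16 h and 5 rose at 72 h, with list medians of 0.35 and 0.81. The largest were Mybl2, the family member of dividing cells, at 2.49 and 3.40, and Mybl1 at 1.88 and 3.02. These rises stood beside the cell cycle sums given above, and their part was not tested.

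Over the 73 grouped libraries, after taking each table's mean from log2 CPM, Pearson's r was -0.88 between Myb and Mxd4, 0.76 between Myc and Max, 0.76 between Max and Mlx, 0.74 between Myc and Myb, 0.70 between Mxd4 and Mxi1, and -0.68 between Myc and Mxd4. Mxd1 and Mxd3 had 0.52. These points share tables, agents and controls, so r is a description of this set of conditions. The 5 genes most like Myc by the same measure, of 9681 with at least 5 CPM on average, were Cish (0.931), Cyth1 (0.917), Rcan3 (0.907), Ncoa3 (0.901) and Nrros (0.899). Cish encodes a feedback inhibitor of IL-2 receptor signalling. For Myb they were the kinase gene Map3k8 (0.919), Naf1 (0.901), the cytokine gene Lif (0.895), Ahcyl2 (0.885) and Dna2 (0.881).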

How the data were processed

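The deposited values were raw read counts per gene in 8 tables. Per the submitters' processing notes, the authors aligned reads to GRCm38 with STAR 2.5.0 and counted Ensembl genes with featureCounts 1.5.0. Per the labels' protocols, total RNA of sorted Tregs was depleted of ribosomal RNA. Second runs (16 of 91 samples) were summed with the first, giving 75 libraries, of which 73 fell into 21 groups and 2, with contradicting labels, into none. Each table was fitted alone with edgeR 4.0.16 (limma 3.58.1, R 4.3.3): TMM scaling, filterByExpr, 1 mean per group, a 2-sided quasi-likelihood F test and Benjamini-Hochberg adjustment over all genes tested, with calls below 0.01. Differences of effects between tables were interaction terms over both tables. CPM are TMM-scaled, and fold changes come from the fit (prior count 2 for log2 CPM in correlations). SE is the absolute log2 change over the square root of F. Exon lengths and coordinates came from a GENCODE annotation of GRCm38. Replicate numbers pair the IL-2 and PBS libraries at 4 h (correlations of deviations 0.375 to 0.798) and at 72 h (0.291 to 0.423), from the values alone, since no label says what a number marks. For FP at 4 h they were 0.180 to 0.821, but per the file headers FP library 2 shares a tag with PBS library 1 (0.614). IL-2 library 1 and FP library 1 share a tag that no PBS library has. So both the number and the tag were tried as the block. Alternatives were DESeq2 1.42.0, other scaling, filter, threshold, groups, lane and block, and leaving out each library. Scripts were tested on simulated data. All 9 genes were tested in every comparison, but the text does not print a value for every gene in each, so the printed values are a selection. The coloured plot of log2 changes by gene and treated group shows all 9 against PBS. From the lists, called genes with a large change were named, usually up to 3 and in some comparisons more. For likeness the 5 genes of highest r were named. The genes, lists and tests were chosen with earlier results of these data known, so a list's direction is no independent evidence. Python 3.11.15, pandas 2.3.3 and matplotlib 3.10.9 were used for tables and plots.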

Additional observations from a re-analysis of the deposited data

Results flagged for a closer look

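In 5 of 90 sets of a gene and a group of 4 libraries, 1 library lay far from the other 3, about as many as chance gives (1 in 20). Myb in FP library 4 at 1.5 h was 165 CPM beside 278, 280 and 288. Max and Mlx in IL-2 library 1 at 4 h were 204 and 71.6 CPM, beside 119 to 129 and 31.4 to 37.2. Myc in FP then FP library 2 was 379 CPM beside 285 to 301, and Myb in FP then FP library 3 was 60.6 CPM beside 35.8 to 39.1.

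Effects that differed between times or settings, by the test of the difference itself on the log2 scale, follow. The IL-2 effect in vitro minus that at 1.5 h in the animal was 1.04 for Mxd1, 0.79 for Mxd4, -0.60 for Mnt and -2.36 for Myb. IL-2 at 16 h minus 1.5 h was -2.14 for Myc, -0.63 for Max, 1.60 for Mxd4, 0.66 for Mxi1, -0.42 for Mnt and -3.16 for Myb. The call for Mnt was lost without IL-2 library 1 or PBS library 2 of 1.5 h, or PBS library 2 or 3 or IL-2 library 3 or 4 of 16 h (adjusted p 0.0103 to 0.0188). IL-2 at 16 h minus 4 h was 1.44 for Mxd4 and -2.61 for Myb, with 3.63% of genes called. FP at 16 h minus 1.5 h was 0.87 for Mxd1 and -0.52 for Mnt. FP at 16 h minus 4 h was 0.70 for Mxd1 (0.838% of genes called), a call lost without FP library 3 of 16 h or PBS library 1 or 2 of 4 h (adjusted p 0.0123 to 0.0145). FP at 72 h minus 16 h was 2.19 for Mxd3 and 0.50 for Mxi1. FP at 168 h minus 72 h was -1.07 for Mxd1, -3.39 for Mxd3 and -2.92 for Myb. The Mxd1 call was lost without PBS library 3 of 72 h (-0.94, adjusted p = 0.0121).

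The 2 libraries at 4 h that belong to no group also held values above the highest PBS library. The library titled FP 3 had 261 CPM of Myc, 124 of Max, 106 of Mxd1, 3.74 of Mxd3 and 296 of Myb, with Mxd4 at 78.7. The library titled PBS 3 had 2.97 CPM of Mxd3, with Myc at 82.8, Mxd4 at 266 and Myb at 36.8.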

How the results depend on the processing

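Over the alternatives other than leaving out each library in turn, 144 counts of changed genes stayed within 1.5 times the reported one and 22 moved. These alternatives include fits of only the groups compared and the shared fit without the first library of PBS then FP. Leaving out 1 library gave 257 and 31. No single gene's called change reversed its sign under any of them. Counts that moved were as follows, and where fewer genes, samples or degrees of freedom do not account for it the cause was not tested. Fitting only the groups compared gave 3 for FP at 1.5 h (reported 5), 0 for IL-2 at 4 h (reported 1), 0 for FP at 4 h (reported 2) and 1 for FP then FP (reported 0). An adjusted p below 0.05 gave 2 for IL-2 at 4 h, 2 for FP then FP and 1 for the high dose (reported 0 for the last 2). DESeq2 gave 2 for IL-2 at 4 h, 1 each for PBS then FP, FP then FP and the high dose, 4 for FP at 16 h minus 1.5 h (reported 2) and 2 for FP at 16 h minus 4 h (reported 1). Grouping the contradicting libraries by title, which their column headers match, gave 2 for IL-2 at 4 h. Grouping them by molecule, which the headers contradict, gave 0 for IL-2 and 0 for FP. With the lane in the fit FP at 4 h had 0. With the header tag as block, chosen after seeing the data, IL-2 at 4 h had 3. Without the first library of PBS then FP in the shared fit, FP then FP had 1. Leaving out 1 library gave 3 to 4 for FP at 1.5 h, 0 to 1 for IL-2 at 4 h, 0 to 1 for FP at 4 h, 0 to 1 for IL-2 at 16 h (reported 0), 0 to 2 for PBS then FP (reported 0), 0 to 1 for FP then FP against PBS then FP (reported 0), 2 to 4 for FP at 16 h minus 1.5 h, 0 to 2 for FP at 16 h minus 4 h and 1 to 2 for FP at 72 h minus 16 h (reported 2).

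With the replicate number as a block, which by their values pairs IL-2 and PBS libraries at 4 h and 72 h, the count was 2 for IL-2 at 4 h and 0 for IL-2 at 72 h. For FP at 4 h the headers pair FP library 2 otherwise, and FP library 1, like IL-2 library 1, has a tag that no PBS library has. The count was 3 with either block. Differences of effects were blocked by number at both times, also where the values show no clear pairing. Correlations of deviations between FP and PBS libraries of the same number were -0.020 to 0.125 at 16 h, 0.076 to 0.218 at 72 h and 0.039 to 0.168 at 168 h. For IL-2 at 16 h they were 0.032 to 0.101. The block gave 2 for FP at 16 h minus 4 h, with Myb added (-1.16, adjusted p = 0.000123), and 5 for FP at 168 h minus 72 h (reported 3), with Mxd4 (0.58, adjusted p = 0.00571) and Mlx (-0.68, adjusted p = 0.00117) added. It also added Myc for IL-2 at 16 h minus 4 h (-1.10, adjusted p = 0.00159) and Myb for FP at 72 h minus 16 h (-0.45, adjusted p = 0.00774). In the other comparisons too libraries share only a number. There the block added Myc for FP at 72 h against PBS (0.38, adjusted p = 0.00159) and against IL-2 (0.49, adjusted p = 0.000234) and Mlx for FP against IL-2 at 16 h (0.38, adjusted p = 0.00958). It dropped Mxi1 for FP at 1.5 h (-0.54, adjusted p = 0.0182) and Max in vitro (0.17, adjusted p = 0.0163). Depth limits Mxd3 most, at 28 reads in its lowest library.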
